A study of Caenorhabditis elegans with 3 samples.

Results

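The genes described here are 10 protease genes of the nematode Caenorhabditis elegans: the cathepsin B genes cpr-1 to cpr-6 and the aspartyl protease genes asp-1 to asp-4. They were chosen by gene symbol in the annotation of the array platform. Of the 10, 9 had a probe under their own symbol, 1 probe each, among 15159 genes tested; asp-2 had none. RNA of early L4 hermaphrodites, the label of which adds the code TP04, was hybridised with a wild-type reference described as mixed on 2-colour DNA microarrays, with the reference in channel 1 and the larval RNA in channel 2. There was 1 group of 3 worm preparations, 1 array each. No strain of the larvae, age in hours or culture condition is given in the sources used here, nor is what was mixed into the reference.

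Cathepsin B is a cysteine protease and the aspartyl proteases of this family resemble cathepsin D and pepsin; both kinds are made as inactive precursors and work at acidic pH. In C. elegans the intestine takes up bacterial food and digests it with secreted and lysosomal proteases, and cpr-1 and asp-1 are known as genes of the intestine. Inside cells the same enzyme classes break down proteins in lysosomes, which the vacuolar ATPase (V-ATPase) acidifies, and cystatins inhibit the cysteine proteases. RNA came from whole worms, so the arrays do not show in which tissue a gene was transcribed, and more cells of a tissue cannot be told apart from more RNA per cell.

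The values are log2 ratios after each array was centred on its median, so 0 is the median probe and 1 is a doubling on the linear scale. No label states which channel is the numerator. Early L4 was taken as the numerator. That is the likely direction, since every description sets early L4 first and the reference after "vs"; with the opposite reading every sign below turns. "Rose" or "higher" means a positive ratio and "fell" or "lower" a negative one, called where limma gave a Benjamini-Hochberg adjusted p under 0.05 over all genes tested. A ratio is no level: it says nothing of which protease had the most RNA. Spot brightness was not used here, and the precision is limited by 3 arrays. The labels do not tie the preparations to separate cultures. The p-values therefore hold for the spread between these arrays, which may be technical, and they leave out the spread of the reference.

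Of the 9 measured proteases, cpr-5, cpr-4 and asp-1 were higher in early L4, cpr-2 was lower, and 5 did not pass. The changes ran from 10.6-fold higher for cpr-5 to 4.85-fold lower for cpr-2. Over all genes tested 22.7% were called, 12.6% higher and 10.1% lower, so 1 of 9 lower is near the background, and no claim about the group is drawn from 3 of 9 higher. The median log2 ratio of the 9 genes was 0.70, against -0.01 over all genes tested; without preparation 3 it was 1.12. It was 0.57 for the 6 cathepsin B genes, whose means ran from -2.28 to 3.41, and 0.70 for the 3 measured aspartyl proteases, whose means ran from 0.70 to 1.49.

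**Figure D1:**
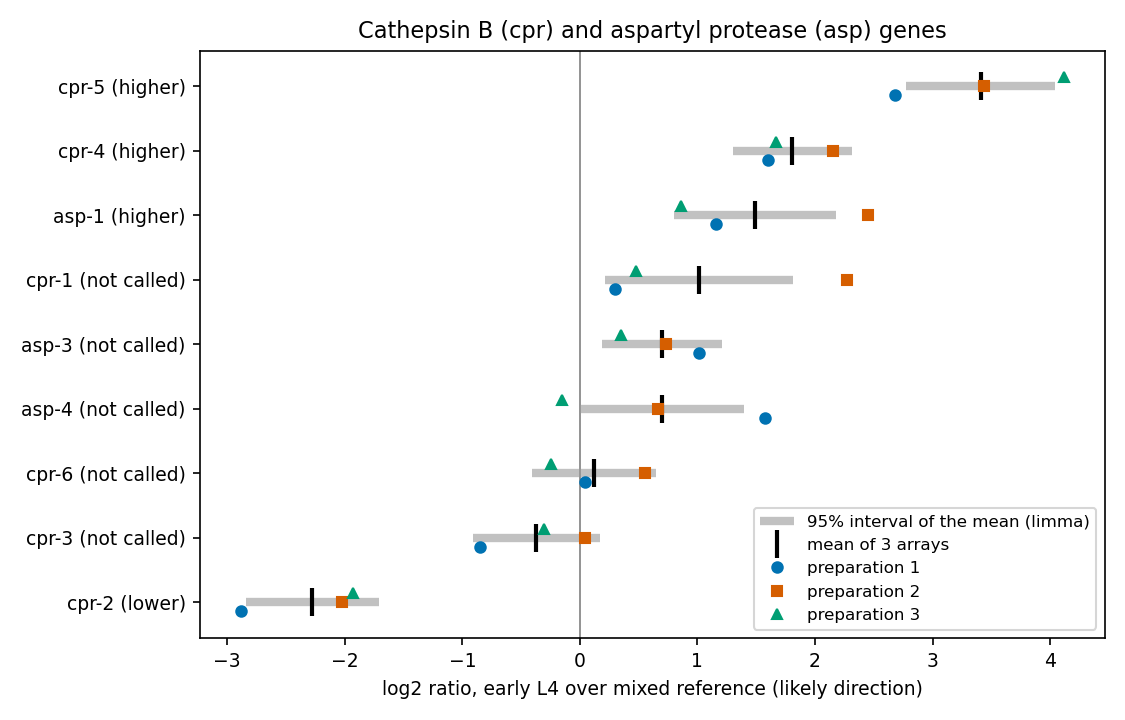
Log2 ratio (x axis, early L4 over mixed reference, likely direction) of each measured protease gene (y axis), with a coloured point for each of the 3 preparations, a black tick for their mean and a grey bar for the 95% interval of the mean from limma. The points of cpr-5 lie between 2.68 and 4.12 and those of cpr-2 between -2.88 and -1.93, on opposite sides of 0.

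Among the cathepsin B genes cpr-5 (W07B8.5) stood highest. Its log2 ratio was 2.68 in preparation 1, 3.44 in preparation 2 and 4.12 in preparation 3, the order of all values below. All 3 were far above 0 and above every value of the other 8 proteases. The mean was 3.41 ± 0.72 (SD, n = 3; 95% interval 2.78 to 4.04; limma adjusted p = 7.71e-05). On the single arrays it stood at percentiles 99.1, 99.8 and 99.97 of all genes, where the percentile is the share of genes with an equal or lower ratio. This rank holds for the likely direction; with the opposite one cpr-5 would stand as near to the bottom.

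The second, cpr-4 (F44C4.3), encodes a cathepsin B-like protease known to be secreted after irradiation of the worm. It had 1.60, 2.15 and 1.67, which were close together. The mean was 1.81 ± 0.30 (SD, n = 3; 3.50-fold; limma adjusted p = 0.000515). Its SD was lower than those of the other 3 called proteases and stood at percentile 38.9 of the SDs of all genes.

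The cathepsin B gene cpr-2 (F36D3.9) went the other way, with -2.88, -2.02 and -1.93. All 3 arrays were below 0. No other measured gene of the set cpr-1 to cpr-6 and asp-1 to asp-4 had a value as low on any array. The mean was -2.28 ± 0.52 (SD, n = 3; 95% interval -2.84 to -1.71; limma adjusted p = 0.00031). The gap between cpr-5 and cpr-2 was 5.56, 5.46 and 6.05 log2 units on the 3 arrays, a mean of 5.69 ± 0.31 (SD, n = 3). That gap varied less between the arrays than the ratio of either gene did.

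The remaining cathepsin B genes did not pass. cpr-1 (C52E4.1), a gene of the intestine, had 0.30, 2.27 and 0.48. Preparation 2 was far above the other two, and the SD of 1.09 stood at percentile 98.7 of all genes. The mean was 1.02 (95% interval 0.22 to 1.81; limma adjusted p = 0.0697), and without preparation 2 it was 0.39 (adjusted p = 0.565). It passed without preparation 1 (1.38, adjusted p = 0.0383) and without preparation 3 (1.28, adjusted p = 0.00346). The fit without preparation 3 gave every gene the same variance, so the wide spread of cpr-1 itself did not enter that p-value.

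For cpr-6 (C25B8.3) the ratios were 0.04, 0.56 and -0.24, and they lay on both sides of 0. The mean was 0.12 ± 0.41 (SD, n = 3; limma adjusted p = 0.763), and the 95% interval, -0.41 to 0.65, corresponds to 0.753-fold to 1.57-fold. Without preparation 2 the mean was -0.10, and without preparation 3 it was 0.30. For cpr-3 (T10H4.12) they were -0.85, 0.04 and -0.31, again on both sides of 0. The mean was -0.37 ± 0.45 (SD, n = 3; 95% interval -0.91 to 0.17; limma adjusted p = 0.316). It was -0.13 without preparation 1 and -0.58 without preparation 2.

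Of the aspartyl proteases asp-1, a lysosomal enzyme of the intestine, rose. Its ratio was 1.16, 2.45 and 0.86, highest in preparation 2 as for cpr-1. All 3 values were above 0. The mean was 1.49 ± 0.84 (SD, n = 3; 2.81-fold; 95% interval 1.74-fold to 4.52-fold; limma adjusted p = 0.00708). Without preparation 2 the mean was 1.01 and the gene still passed (adjusted p = 0.0399).

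The proteases asp-3 (H22K11.1) and asp-4 (R12H7.2) are known in C. elegans for their part in necrotic death of neurons. asp-3 had 1.02, 0.74 and 0.35. All were above 0, but the mean of 0.70 ± 0.33 (SD, n = 3; 95% interval 0.19 to 1.21) just missed the threshold (limma adjusted p = 0.053). asp-4 had 1.58, 0.66 and -0.15. The values spread over both sides of 0, and the SD of 0.86 stood at percentile 95.5 of all genes. Its mean was 0.70 (95% interval 0.0034 to 1.39; limma adjusted p = 0.142). Without preparation 1 the mean was 0.26 (adjusted p = 0.489). Without preparation 3 it was 1.12 and passed (adjusted p = 0.0135), in a fit that gave every gene the same variance.

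The probe that bears on asp-2 (T18H9.2) is named in the platform annotation for T18H9.11, a pseudogene beside it in the gene table. A transcript accession listed for this probe now belongs to asp-2, so the probe may report either gene or both, and it was not counted as a protease. Its ratio was 1.60, 1.66 and 1.79. The values were close together, with a mean of 1.68 ± 0.10 (SD, n = 3; limma adjusted p = 0.00055). Counted as asp-2, it would make 4 of 10 genes called higher.

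**Figure D2:**
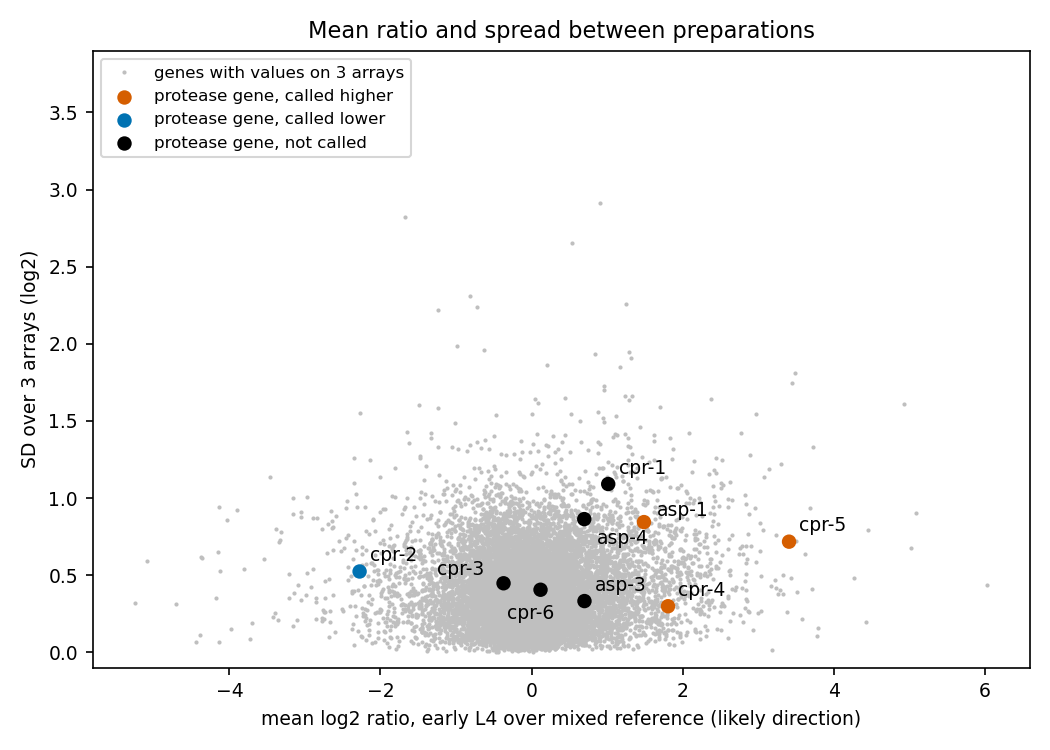
Mean log2 ratio (x axis) against the SD over the 3 arrays (y axis, log2) for every gene with 3 values (grey) and the 9 proteases (coloured by call). cpr-5 lies toward the right of the cloud and cpr-2 toward the left, and cpr-1 has the highest SD of the 9, at 1.09.

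In the order of mean ratios, cpr-5 was followed by cpr-4, asp-1, cpr-1, asp-3, asp-4, cpr-6, cpr-3 and cpr-2. Of the 8 pairs of neighbours in this order, 2 had values that did not overlap between arrays: cpr-5 above cpr-4, by 1.60 ± 0.74, and cpr-3 above cpr-2, by 1.91 ± 0.25 (SD, n = 3). The values of the other 6 pairs overlapped. Compared on the same array, asp-1 was above cpr-1 (by 0.86, 0.18 and 0.38), asp-4 above cpr-6 (by 1.54, 0.11 and 0.10) and cpr-6 above cpr-3 (by 0.89, 0.52 and 0.06) on all 3 arrays, while the remaining pairs changed places on 1 array. In all, 5 of the 9 genes, cpr-1, cpr-4, cpr-5, asp-1 and asp-3, were above 0 on all 3 arrays, and 1, cpr-2, was below 0 on all. Over genes with 3 values, 26.2% were above 0 and 27.6% below 0 on all arrays.

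The preparations did not rank alike for the different proteases. Preparation 2 gave the highest ratio for cpr-1, cpr-3, cpr-4, cpr-6 and asp-1. Preparation 1 gave the highest for asp-3 and asp-4, and preparation 3 for cpr-5 and cpr-2. Over the 9 genes the median stood at 1.02 in preparation 1, 0.74 in preparation 2 and 0.35 in preparation 3. Over all genes the correlation between arrays was 0.684 for preparations 1 and 2, 0.643 for 1 and 3 and 0.809 for 2 and 3 (Pearson's r across 15128 genes, which are not independent replicates and share the reference and probes).

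Markers of the intestine mostly had positive ratios, as had the 3 proteases that rose. Of 14 measured, 11 rose and 3 did not pass, where 12.6% of all genes tested were called higher. The median of the 14 was 1.41. The brush border actin act-5 had 2.23 ± 0.25 (SD, n = 3; limma adjusted p = 0.000185) and the peptide transporter pept-1 had 1.91 ± 0.43 (limma adjusted p = 0.000526). The 3 that did not pass were the gut transcription factors elt-2, at 0.03, and elt-7, at -0.03, and the ion channel gene gtl-1, at 0.46; they are named because they are the exceptions. For preparations 1, 2 and 3 the median marker had 1.03, 1.61 and 1.34. The part of the intestinal share of the RNA in the protease ratios was not tested.

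Set against that median on the same array, cpr-5 was higher by 1.66, 1.83 and 2.77 log2 units and cpr-4 by 0.58, 0.55 and 0.33. These 2 genes exceeded the median marker on every array, and so did the markers act-5, vha-6 and nhx-2 themselves. The means of act-5 and pept-1, 2.23 and 1.91, lay above that of cpr-4, 1.81, and below that of cpr-5, 3.41. For asp-1 the difference was 0.13, 0.84 and -0.48, on both sides of 0. cpr-2, cpr-3, cpr-6 and asp-3 were below the marker median on all 3 arrays, cpr-2 by a mean of -3.60 ± 0.32 (SD, n = 3). cpr-1 and asp-4 exceeded it on 1 array each.

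**Figure D3:**
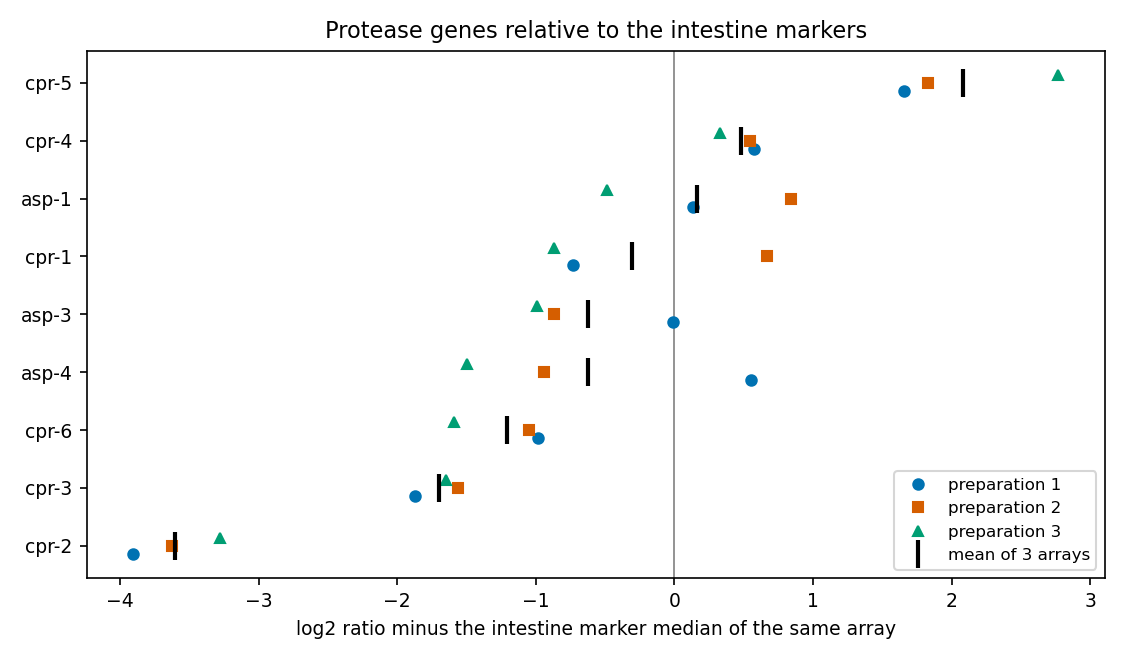
Log2 ratio of each protease minus the median log2 ratio of the intestine markers on the same array (x axis), with a coloured point for each of the 3 preparations and a black tick for the mean. The points of cpr-5 and cpr-4 lie right of 0 on all arrays, and those of cpr-2 lie between -3.91 and -3.27.

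Markers of other tissues of the worm were also counted. Of 8 epidermal markers 5 rose (median 1.15), of 6 body wall muscle markers 3 rose (median 0.91), and of 8 germline markers 3 rose (median 0.46). Of 6 pharyngeal markers 1 rose and 1 fell (median 0.17), and of 8 neuronal markers 1 fell (median -0.44, and -0.19 without preparation 1). All other markers of these lists did not pass. Positive medians were therefore seen for several tissues besides the intestine. Over all genes tested 12.6% were called higher and 10.1% lower, so the pharyngeal and neuronal counts are near the background.

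Other proteases of the same classes were counted by gene symbol. Outside the 10 genes, both measured genes with a cpr symbol rose. cpr-9 (F57F5.1) had 1.97, 1.75 and 1.70, a mean of 1.81 ± 0.14 (SD, n = 3; limma adjusted p = 0.000416). cpr-8 (W07B8.1) had 1.69, 1.66 and 1.89, a mean of 1.75 ± 0.13 (limma adjusted p = 0.000463). The arrays differed little for either. With them, 4 of the 8 measured genes with a cpr symbol rose and 1, cpr-2, fell. Over all genes tested 12.6% were called higher and 10.1% lower. Genes of the class that carry no cpr symbol are not in this count.

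Of the 10 other aspartyl proteases with a probe, 1 rose and 9 did not pass. Over all genes tested 12.6% were called higher, so 1 of 10 is near the background. The median of the 10 was 0.04, and the means ran from -0.68 to 0.77. The sign of this median was not stable: it was -0.02 after quantile normalization, -0.09 without preparation 1, 0.18 without preparation 2 and 0.11 without preparation 3. The 1 that rose was asp-13 (F28A12.4), with 0.91, 0.61 and 0.80, a mean of 0.77 ± 0.16 (SD, n = 3; limma adjusted p = 0.0284). Every mean in this list lay below that of asp-1.

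The list of other lysosomal peptidases was drawn by gene symbol, and not every product on it need be lysosomal. It includes the cathepsin L gene cpl-1, the cathepsin Z genes and serine carboxypeptidases, and its genes mostly rose. Among 16 measured genes 10 rose and 1 fell, against 12.6% and 10.1% of all genes tested. The other 5 did not pass, and the median of the 16 was 1.16. ctsa-1.2 (F13D12.6), of the cathepsin A class of serine carboxypeptidases, had 2.46, 3.00 and 2.34 and a mean of 2.60 ± 0.35 (SD, n = 3; limma adjusted p = 0.00011). pcp-3 (F23B2.11), a prolyl carboxypeptidase-like gene, had a mean of 2.18 ± 0.27 (limma adjusted p = 0.000207). The 1 that fell was lgmn-1 (T28H10.3), named for the cysteine protease legumain, with -0.68, -1.59 and -2.67 and a mean of -1.65 ± 1.00 (limma adjusted p = 0.00696).

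The cystatins, inhibitors of cysteine proteases such as cathepsin B, had negative ratios. cpi-1 (K08B4.6) fell, with -3.36, -1.77 and -2.80 and a mean of -2.64 ± 0.81 (SD, n = 3; limma adjusted p = 0.000341). Its values were below -1 on every array. cpi-2 (R01B10.1) had -0.16, -1.04 and -0.79, and its mean of -0.67 ± 0.45 did not pass (limma adjusted p = 0.079).

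Genes of the V-ATPase, listed by symbol and not by the membrane they serve, rose in part. Among 18 subunits 8 rose and 10 did not pass, where 12.6% of all genes tested were called higher. The median of the 18 was 0.54. vha-12 (F20B6.2) had 2.11, 2.12 and 1.92 and a mean of 2.05 ± 0.11 (SD, n = 3; limma adjusted p = 0.000228). vha-6 (VW02B12L.1), the a subunit of the intestine and also one of the intestine markers, had a mean of 2.01 ± 0.59 (limma adjusted p = 0.000639).

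Other genes of the lysosome were called in both directions. Among 41 lysosomal membrane and hydrolase genes 6 rose and 7 fell, where 12.6% and 10.1% of all genes tested did so. No claim about the list is drawn from these counts. The other 28 did not pass, and the median of the 41 was 0.12. The lipase-like gene lipl-5 had a mean of 2.84 ± 0.58 (SD, n = 3; limma adjusted p = 0.000129) and the acid alpha-glucosidase-related gene aagr-4 of 1.28 ± 0.51 (limma adjusted p = 0.00542). At the other end the hexosaminidase gene hex-1 had -1.75 ± 0.37 (limma adjusted p = 0.000702) and the acid sphingomyelinase gene asm-3 had -1.40 ± 0.31 (limma adjusted p = 0.00198).

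The calpains are cytosolic cysteine proteases, of which clp-1 and tra-3 act with asp-3 and asp-4 in neuronal necrosis. Of 6 measured, 0 were called in limma, against 22.7% of all genes tested, and 2 had an unadjusted p under 0.05. Their median was 0.16, and 0.08 without preparation 1. Of 7 measured transcription factors of the gut and lysosome, 1 fell and 6 did not pass. Among the 6, elt-2 and elt-7 are also in the list of intestine markers. Over all genes tested 10.1% were called lower, so 1 of 7 is near the background. The median of the 7 was -0.18, and -0.28 without preparation 1. The 1 that fell was the zinc finger gene pqm-1, at -0.92 ± 0.68 (SD, n = 3; limma adjusted p = 0.0402).

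**Figure D4:**
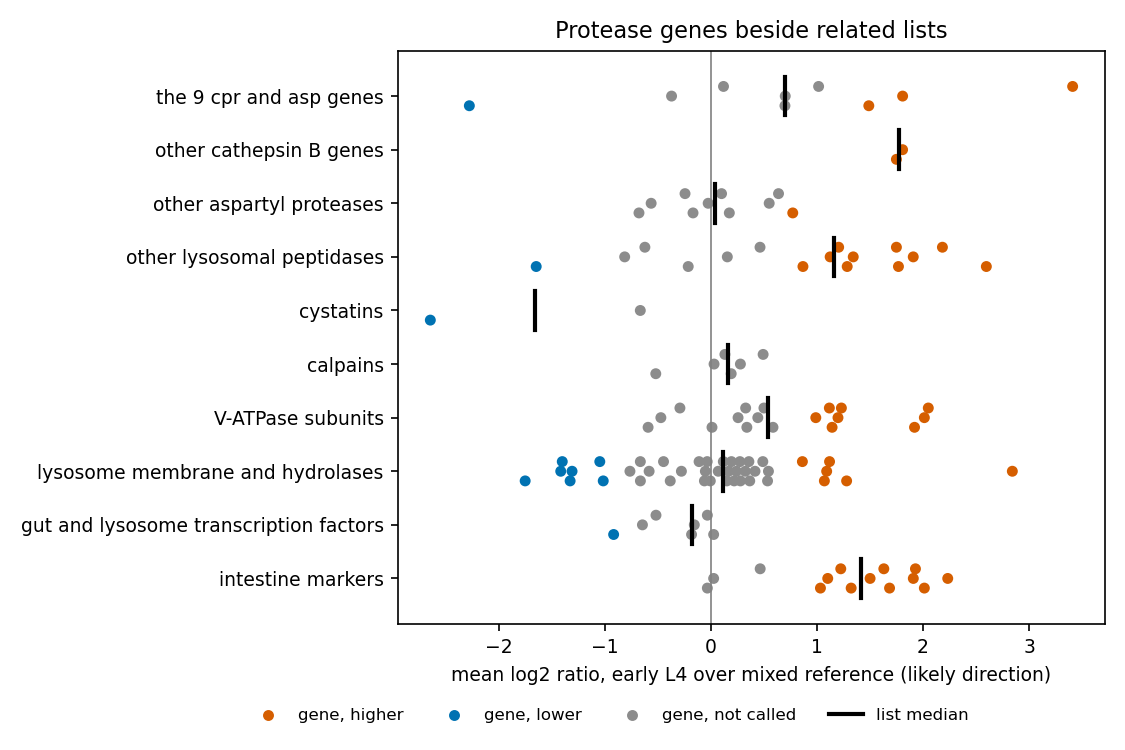
Mean log2 ratio (x axis) of every measured gene in each list (y axis), coloured by call, with a black line at the list median. The 9 proteases span -2.28 to 3.41, the 2 other genes with a cpr symbol, shown as other cathepsin B genes, and most intestine markers lie above 1, and cpi-1 lies at -2.64.

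Genes with ratios most like those of the 4 called proteases were found by Euclidean distance over the 3 arrays among 9244 genes with a class name; only 3 values enter, so this describes a like ratio on each array. Nearest to cpr-5 were the collagen gene col-79, at a distance of 0.63, and the acyl-CoA dehydrogenase gene acdh-1, at 0.73. For cpr-4 they were hpo-32 (0.18) and the collagen gene col-182 (0.20). For asp-1 they were sec-61.G, of the protein translocation channel (0.23), and the muscle troponin C gene pat-10 (0.34). For cpr-2 they were egg-3, of the oocyte-to-embryo transition (0.17), and skr-5, a Skp1-related gene (0.31). The nearest gene to cpr-2, egg-3, had -2.86, -1.87 and -1.86.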

How the data were processed

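The table deposited by the authors holds log2 ratios of the 2 channels for 20000 probes on 3 arrays. At least 99.96% of values per array, raised as powers of 2, were whole thousandths within 0.01 of a thousandth. Normalization, dyes, centring and direction: not given in the sources used here. Medians as deposited were 0.05, -0.08 and -0.02. Values were present for 19905, 19841 and 19872 probes. Probes were named from the platform annotation, with symbols updated by gene number from the WBcel235 gene table: 15655 had 1 gene, 198 several and 4147 none. None of the probes of several genes lists one of the 10 proteases. Neither group of unnamed probes entered the main fit.

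Each array was centred on its median, probes of 1 gene were averaged, and genes with values on at least 2 arrays were tested against 0 with lmFit and eBayes (two-sided, limma 3.58.1 in R 4.3.3, with 2 residual degrees of freedom and 7.59 from the prior, Benjamini-Hochberg over all genes, threshold 0.05). An exact sign permutation of 3 arrays cannot go below p = 0.25. The code was tested on simulated data. Genes and lists were chosen with earlier results of these data known. The rule for named genes took all proteases, up to 2 called genes of smallest adjusted p per direction and list (whole lists of 4 or fewer), 2 nearest genes per called protease, and called genes among the 2 protein-coding neighbours on each side; of the rule, marker lists other than the intestine are given as counts. cpl-1, elt-2, elt-7, gtl-1, nhx-2 and cutl-22 were named outside it.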

Additional observations from a re-analysis of the deposited data

How the results depend on the processing

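The calls of cpr-2, cpr-4, cpr-5 and asp-1 held, with the sign unchanged, in all 9 alternatives run on each, with means from -2.45 to -1.98, 1.64 to 1.91, 3.06 to 3.78 and 1.01 to 1.80. Each of these genes has 1 probe with 3 values. Their means, and so their signs, were fixed in the alternatives that changed only the variance fit or the probes or genes tested. In those alternatives only the p-value could move. The number of proteases called higher, 3 in the main analysis, was 5 after quantile normalization, which added cpr-1 (adjusted p = 0.0283) and asp-3 (0.0389), 4 with the ratios as deposited, which added cpr-1 (0.0488), and 3 to 5 with 1 preparation left out; the cause was not tested. The fit without preparation 3, which gave 5, had infinite prior degrees of freedom, so every gene shared 1 variance, and the fit without preparation 2 had 87.9. The number called lower was 1 throughout. The median of the 9 genes was 0.54 to 1.12 with 1 preparation left out. For the other lists, the medians that moved by over 1.5 times or turned their sign were those of the other aspartyl proteases, the calpains, the transcription factors and the neuronal markers, each given with the list. The mean of cpr-6 turned to -0.10 without preparation 2 and was at most 0.30, without preparation 3. The number of all genes called was 3444 in the main analysis (55.7% of them higher) and 2423 to 4054 in the alternatives. That number was 4054 after quantile normalization (52.2% higher) and 3580 with the ratios as deposited (53.8%). Without preparation 1, 2 or 3 it was 3931 (57.5%), 2423 (52.6%) and 2762 (57.6%). The T18H9.11 probe counted as asp-2 and the test of every probe were chosen after seeing the data. No paired analysis was possible because the series has 1 group. Signal over background could not be examined because spot brightness was not used here.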

Other observations

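Along the chromosomes, 7 of the 10 protease genes lie on V and 3, cpr-6, asp-3 and asp-4, on X in the WBcel235 gene table. Around the 9 measured proteases, 36 other protein-coding genes stand within 2 places on either side. Of these, 27 were measured, 4 rose and 3 fell, against 12.6% and 10.1% of all genes. The neighbours of cpr-5 differed in sign. W07B8.4, before it, fell, with -0.89, -0.97 and -1.22 on the 3 arrays and a mean of -1.03 ± 0.17 (SD, n = 3; limma adjusted p = 0.00781). cpr-8, after it, rose (1.75), and cutl-22, the next gene, did not pass (0.65, limma adjusted p = 0.057).

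At 2 places before cpr-2, which fell, F36D3.8 rose, with 3.14, 2.02 and 1.38 on the arrays. The mean of F36D3.8 was 2.18 ± 0.89 (SD, n = 3; limma adjusted p = 0.0011). The genes directly before and after cpr-2 were not measured. Beside cpr-1, mif-2, of the macrophage migration inhibitory factor family, rose (0.92, adjusted p = 0.0265) and F58H1.7 fell (-1.45, adjusted p = 0.0012) in limma. The remaining called neighbours were ZK1055.7 near cpr-4, which rose (0.94, limma adjusted p = 0.0107), and the C-type lectin gene clec-266 near cpr-6, which fell (-1.49, limma adjusted p = 0.00136).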
